A study of Drosophila melanogaster with 2 samples.

Results

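Peaks of the ETS-family transcription factor Ets96B were examined at 5 genes of the Myc, Max and Mnt network in Drosophila melanogaster: Myc, Max, Mnt, Mondo and bigmax. The genes were chosen by gene name in the Ensembl annotation, and the peaks by a summit, the deposited point of maximum in each peak, inside the gene or 5 kb either side of it. All 5 names matched 1 gene each, out of 13968 protein-coding genes annotated. Together the 5 windows held 27 of the 8015 peaks in the authors' reproducible list. The genes were proposed with peak values of these data in view, so their counts, positions and signals are given as a description and no test was made on them.

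The data are chromatin immunoprecipitation with sequencing (ChIP-seq) from a single group of transgenic flies, collected as whole prepupae of both sexes at 24 h. The flies stably expressed Ets96B with eGFP fused to its C terminus, and an antibody to GFP pulled down the tagged protein, although another label field names the antibody by Ets96B itself. There were 2 biological replicates, numbered 2 and 3, both from 1 transgenic line. Neither an untagged line nor another factor was analysed here, and whole animals mix all tissues, so a peak cannot be assigned to a cell type.

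Myc is a transcription factor of the basic helix-loop-helix leucine zipper (bHLH-zip) class and a driver of cell growth and ribosome production. It binds DNA as a dimer with Max, typically at the E-box word CACGTG. Mnt also dimerises with Max at such sites and acts as a repressor opposing Myc. Mondo and its partner bigmax, the fly counterpart of mammalian Mlx, form a parallel dimer that adjusts metabolic genes to dietary sugar.

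The genes differed in where their peaks lay. At Mnt the peaks were spread through several introns, at Myc most were clustered in 1 intron, and both genes had very strong ones. At Max, Mondo and bigmax the nearest peak sat just upstream of a start site and was of middling or low strength. The reproducible summits numbered 16 at Mnt, 5 at Myc and 2 each at Max, Mondo and bigmax. As background, 53.1% of all protein-coding genes had at least 1 reproducible summit in a window drawn the same way. A reproducible summit no more than 500 bp from an own transcription start site (TSS) was found at 4 of the 5 genes, namely Max, Mnt, Mondo and bigmax, against 20.5% of all protein-coding genes. Myc was the exception. With each summit given only to the gene of the nearest start site the count was 2, Mnt and Mondo, since the summits at Max and bigmax lay closer to their neighbours Mettl5 and Hmu. The share of all genes was not recomputed under that rule.

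To show sequence at the summits, windows of 101 bases are printed from the plus strand of the RefSeq copy of the dm6 assembly. They are centred on the strongest Myc and Mnt summits and on each summit within 500 bp of a member's own TSS. Capitals mark matches, on either strand, to the ETS core GGAA, the variant E-box CACGCG, the homeodomain core TAATTA, the GAGA word GAGAG, the E-box CACGTG, the longer ETS word CCGGAAGT or the DRE word TATCGATA. Each name gives the gene and the distance of the summit in bp from the gene's first annotated TSS, positive in the direction of transcription and negative upstream.
Mnt +10541 at chrX:3682292-3682392: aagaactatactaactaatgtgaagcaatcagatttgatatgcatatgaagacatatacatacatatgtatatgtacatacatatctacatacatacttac
Mnt +16187 at chrX:3687938-3688038: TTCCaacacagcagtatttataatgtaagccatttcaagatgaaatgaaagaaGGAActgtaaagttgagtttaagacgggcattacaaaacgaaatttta
Mnt +17401 at chrX:3689152-3689252: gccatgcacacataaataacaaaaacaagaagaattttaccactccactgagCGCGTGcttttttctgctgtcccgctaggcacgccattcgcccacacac
Myc +8737 at chrX:3381846-3381946: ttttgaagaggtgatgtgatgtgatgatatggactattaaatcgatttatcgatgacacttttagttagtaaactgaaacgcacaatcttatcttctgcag
Max -134 at chr3L:19264268-19264368: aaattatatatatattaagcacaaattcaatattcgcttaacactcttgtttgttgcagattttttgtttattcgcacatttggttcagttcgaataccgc
Mondo -297 at chr2L:21310297-21310397: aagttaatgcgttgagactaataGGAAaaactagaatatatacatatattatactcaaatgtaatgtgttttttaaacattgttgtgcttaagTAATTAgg
bigmax -128 at chr3R:27288604-27288704: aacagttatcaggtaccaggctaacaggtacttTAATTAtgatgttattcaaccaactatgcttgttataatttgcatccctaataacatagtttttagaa
The strongest Mnt and Myc windows and the Max window held none of these words.

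Mnt (FBgn0023215), the repressor of the network, lies on X from 3671801 to 3701672 on the plus strand and has 10 annotated transcripts with 3 start sites. Its window of 39.9 kb held 16 reproducible summits, a density of 4.01 per 10 kb (95% Poisson interval 2.29 to 6.52, counting error only). All 16 lay inside the gene. Only 29 protein-coding genes, Mnt included, had as many in their windows. Among 210 other genes whose windows were within 10% of Mnt's in length, the median was 2 summits (quartiles 0 to 4) and the highest count was 12. The replicates gave similar totals: the 8015 strongest peaks of replicate 2 placed 16 summits in the Mnt window and those of replicate 3 placed 15. These were not all the same peaks. The replicate 2 matches of Mnt +8261 and Mnt +17401 ranked 13188 and 8487, outside its 8015 strongest. So did the replicate 3 match of Mnt +6414, at 11279.

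**Figure D1:**
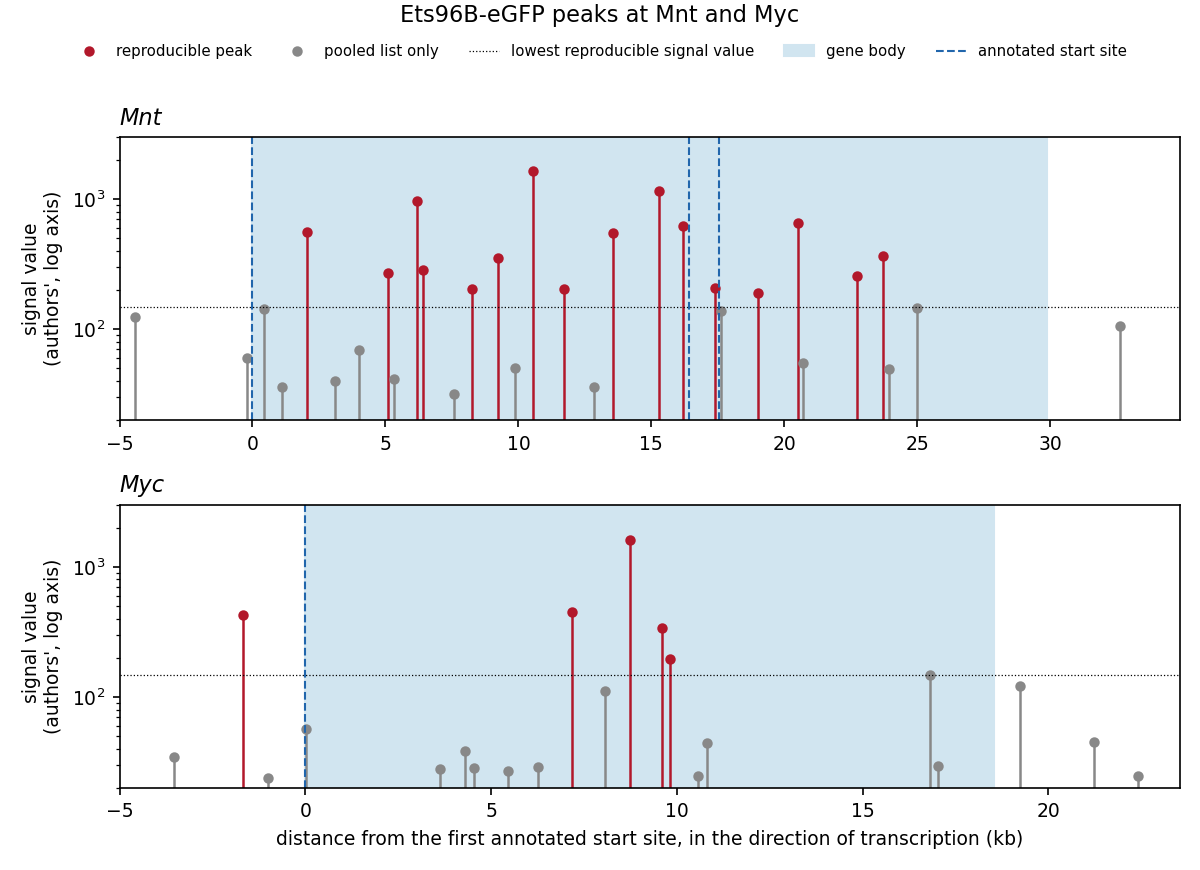
Signal values (authors' units, log axis) of peaks in the Mnt and Myc windows against distance from the first annotated start site in kb. Red points are the 16 and 5 reproducible peaks, grey points are peaks of the pooled list only, the shaded band is the gene and dashed lines are start sites. Red points run through Mnt from +2062 to +23706 bp, and 4 of the 5 at Myc lie in its intron 2.

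The Mnt summits all lay in introns 1 to 5. Joining the exons of all transcripts left 10 introns. Intron 1, of 11313 bp, held 7 summits, intron 2, of 4785 bp, held 4, intron 3 held 1, and introns 4 and 5 held 2 each. Introns 6 to 10 held none, but at 65 to 206 bp each they are too short for that absence to be informative. Neighbouring summits were 210 to 3052 bp apart, with a median gap of 1304 bp, so the row of peaks ran over 21644 bp without a long break. The 16 summits lay in 15 distinct intervals, since Mnt +6204 and Mnt +6414 share 1 peak region.

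Strength varied widely along this row. Signal values, the authors' own scores for each peak, ran from 191 to 1651 at Mnt, with a median of 359.6 (the whole reproducible list had a median of 293). The strongest summit, Mnt +10541 in intron 1 (summit 3682342 on X), had a signal value of 1651 and rank 252 of 8015. In the replicate lists of 30000 peaks its match ranked 279 in replicate 2 and 259 in replicate 3. Next came Mnt +15305 in intron 2, with a signal value of 1153 and replicate ranks of 541 and 536, and Mnt +6204, with 962 and ranks of 434 and 1285. These 3 stood apart from the row; the next highest was Mnt +20523 in intron 4, with 655. The strongest summit accounted for 19.5% of the summed signal of the 16, against 53.5% at Myc. In intron 1 the other summits were Mnt +2062 (554), +9237 (352), +6414 (285), +5114 (268) and +8261 (202). In intron 2 they were Mnt +16187 (618), +13541 (552) and +11699 (203). Farther downstream, intron 4 also held Mnt +18995 (191), and intron 5 held Mnt +23706 (367) and Mnt +22750 (255).

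The internal start sites of Mnt had reproducible peaks and its first start site did not. Of the 10 transcripts, 5 begin at 3688235, and Mnt +16187 lay at -247 bp from that site with a signal value of 618 and rank 1598. Another 4 begin at 3689363, where Mnt +17401 lay at -161 bp with a signal value of 206 and rank 5796. Its match ranked 5031 in replicate 3 and 8487 in replicate 2, which puts it outside replicate 2's own 8015 strongest. The remaining transcript begins at 3671801, and its nearest reproducible summit was Mnt +2062, with a signal value of 554. The pooled list had weaker peaks there, at -202 bp (rank 16748) and +429 bp (rank 8231), and the second of these was among the strongest peaks left out of the reproducible list. The first lay closer to a start site of Parg, at -97 bp from it.

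Myc (FBgn0262656), the activator of the network, lies on X from 3373159 to 3391697 on the plus strand, and both annotated transcripts share 1 start site. A long non-coding RNA gene, lncRNA:CR44999, starts at the same position and runs beyond Myc on the same strand, so summits inside Myc lie inside both. The Myc window of 28.5 kb held 5 reproducible summits, or 1.75 per 10 kb (0.569 to 4.09). Among 347 other genes of like window length the median was 2 (quartiles 0 to 4), and 15.6% had 5 or more. Replicate 2 alone placed 4 of its 8015 strongest summits there and replicate 3 placed 5.

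Of the 5 Myc summits, 4 lay in intron 2, which spans 8153 bp and makes up 44.0% of the gene. They stood at +7182, +8737, +9608 and +9815 bp, with signal values of 449.6, 1623, 342 and 196. Myc +8737 (summit 3381896) was the strongest, with rank 261, and alone held 53.5% of the summed signal of the 5. Its match ranked 372 in replicate 2, with a signal value of 526, and 203 in replicate 3, with 1124. The weaker pair at +9608 and +9815 overlapped 1 and the same peak of replicate 2 (rank 5844), whereas replicate 3 resolved them at ranks 2554 and 7681. The fifth summit, Myc -1689, lay upstream of the gene with a signal value of 425 and ranks of 2569 and 2665 in replicates 2 and 3. The nearest other protein-coding start site was 37600 bp from it.

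At the Myc start site itself the reproducible list had no summit. The pooled list had a peak 9 bp downstream of it, with a signal value of 56.4, rank 17503 and a deposited −log10 q-value of 1.75. The nearest summit of replicate 2 lay at -56 bp from the start site, with rank 17296, and that of replicate 3 at -104 bp, with rank 17510. Both replicates thus carried a weak peak beside the Myc start site, far below the intron 2 summit.

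**Figure D2:**
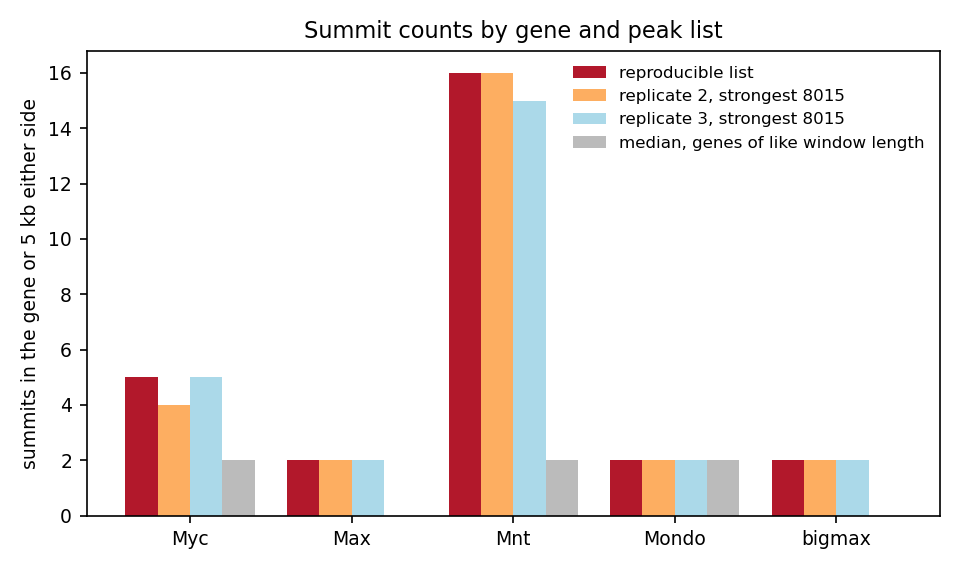
Number of summits in each gene with 5 kb either side, for the reproducible list, for the 8015 strongest peaks of replicates 2 and 3, and as the median over genes whose windows are within 10% in length. Mnt stands at 16, 16 and 15 against a median of 2, Myc at 5, 4 and 5 against 2, Mondo at 2 in each against 2, and Max and bigmax at 2 in each against 0. Among genes of like window length, 21.9% for Max, 19.5% for bigmax and 58.5% for Mondo had 2 or more reproducible summits.

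Max (FBgn0017578), the shared partner of Myc and Mnt, is a gene of 1953 bp on 3L, from 19262232 to 19264184 on the minus strand. Its window held 2 reproducible summits, as did both replicates' own strongest peaks. Max -134 (summit 19264318) lay at -134 bp from the common start site of its 3 transcripts, with a signal value of 303 and rank 3873. The replicates ranked it 4196 and 3919, with summits 0 and 8 bp away. This position is also at -86 bp from a start site of Mettl5, an RNA methyltransferase gene on the opposite strand. Max +509 lay inside intron 2 of Max with a signal value of 200.5, and at -91 bp from another start site of Mettl5, with replicate ranks of 5355 and 6710. Neither summit can thus be assigned to Max alone.

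Mondo (FBgn0032940), the sugar-responsive factor, extends over 23973 bp on 2L, from 21286078 to 21310050 on the minus strand, with 11 transcripts and 3 start sites. Its gene body held 0 reproducible summits, which allows at most 1.54 per 10 kb (upper bound of the 95% Poisson interval). The density over the whole of 2L, 0.625 per 10 kb, lies below that bound, so the absence is not distinguishable from it. The longer gene body of Mnt, of 29872 bp, held 16 summits, or 5.36 per 10 kb (3.06 to 8.70). The pooled list had 1 peak in the Mondo gene body, at rank 13598. Mondo -297 (summit 21310347) lay at -297 bp from the start site used by 9 of its transcripts, with a signal value of 177 and rank 6759, the weakest of the 27. Its match ranked 6051 in replicate 2 and 7472 in replicate 3, where the summit was 151 bp away. The start site of crc, which encodes the fly ATF4 factor and runs the other way, is also near, and the summit stood at -519 bp from it. The second summit in the window, at -4022 bp, was stronger (468, rank 2291) but lay at -288 bp from a start site of CG46314. The Mondo count of 2 equalled the median of 248 other genes of like window length.

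The partner of Mondo, bigmax (FBgn0039509), is 1161 bp long and lies on 3R, from 27287366 to 27288526 on the minus strand. Its closest summit, bigmax -128 (summit 27288654), lay in the short gap between bigmax and Hmu, at -128 bp from the bigmax start site and -115 bp from that of Hmu. The signal value was 342 and the rank 3357, with replicate ranks of 4155 and 3056. The other summit of the window, 6023 bp downstream of the bigmax start, lay 158 bp from a start site of mrt, with a signal value of 200.1.

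**Figure D3:**
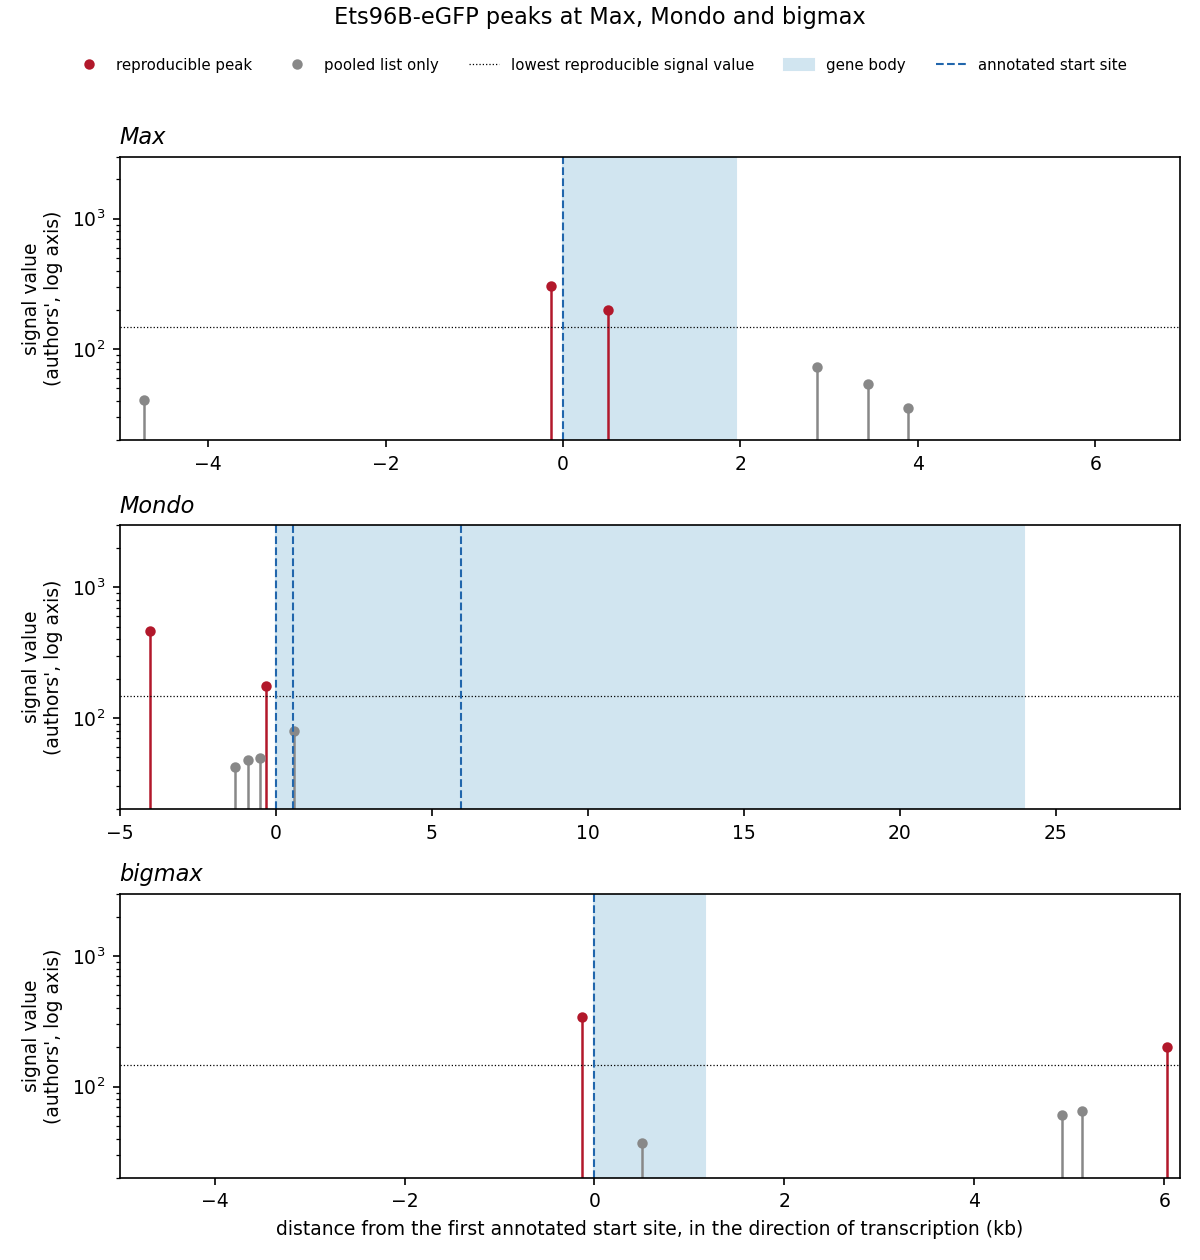
Signal values (authors' units, log axis) of peaks in the Max, Mondo and bigmax windows against distance from the first annotated start site in kb, with the symbols used for Mnt and Myc. Each gene has 1 red point just upstream of its start site, at -134, -297 and -128 bp, and the Mondo gene body holds no red point.

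Density over the 5 windows together was 2.15 reproducible summits per 10 kb (1.42 to 3.13), with 27 summits on 125 kb. This compares with 0.631 (0.599 to 0.664) on X, 0.625 on 2L, 0.657 on 3L and 0.570 on 3R, and with a median of 0.470 over the windows of all protein-coding genes. Mnt supplied 16 of the 27 summits, so the combined density describes mostly that gene. By gene, the densities at Mnt (4.01), Myc (1.75), Max (1.67) and bigmax (1.79) were reached or exceeded by 0.680%, 12.7%, 14.9% and 11.5% of protein-coding genes, and that at Mondo (0.589) by 47.8%. Those at Max, bigmax and Mondo rest on 2 summits each, and their intervals are wide (Max 0.203 to 6.04, bigmax 0.217 to 6.47, Mondo 0.0713 to 2.13).

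All 27 reproducible peaks overlapped a peak in both replicates. The reproducible list is itself made from the replicate and pooled lists, so this is no independent check. With summits required to lie within 100 bp, 25 of the 27 were found in both (92.6%, exact binomial interval 75.7 to 99.1), against 94.5% of all reproducible peaks. Over 26 peaks matched 1 to 1, signal values in the replicates had a Spearman rho of 0.756 across peaks, and the summits differed by a median of 18.5 bp. Over all 7791 reproducible peaks matched this way rho was 0.810 and the median shift 24 bp. These peaks share 2 libraries and are not independent.

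**Figure D4:**
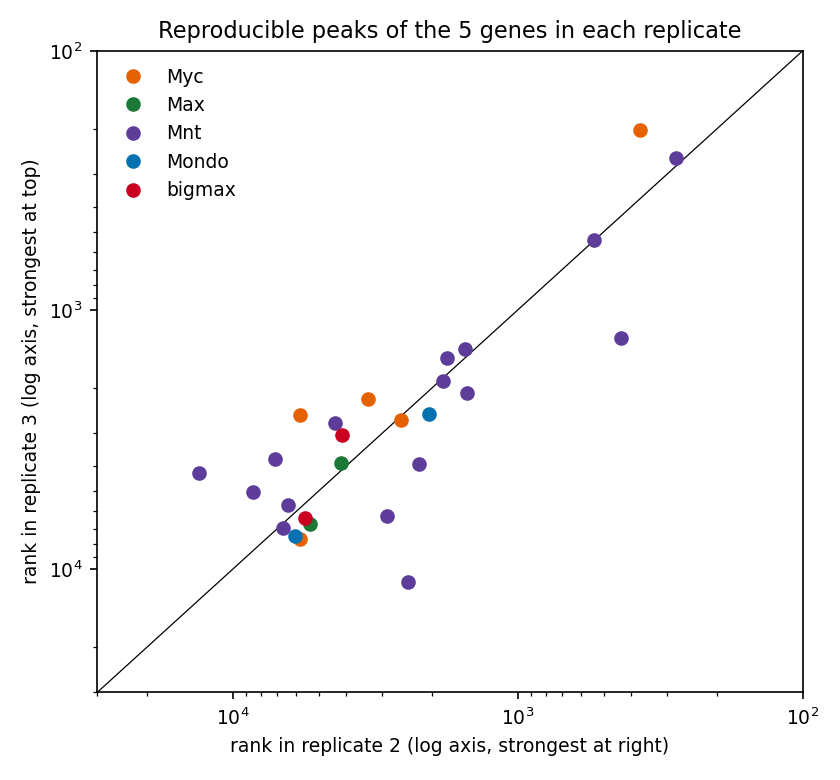
Rank of the match of each of the 27 reproducible peaks in replicate 2 (horizontal) and replicate 3 (vertical), both on log axes with the strongest peaks at top right. The line marks equal ranks. The strongest Mnt peak, Mnt +10541, sits near the line, Myc +8737 lies above it at ranks 372 and 203, and the points farthest from it are Mnt +6414, Mnt +8261 and Mnt +6204.

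The largest disagreements between replicates were at weaker intronic peaks or at summits that shared a region. Ranks differed by more than 2-fold at 5 of the 26 peaks, 4 of them at Mnt. Mnt +6414 ranked 2425 in replicate 2 and 11279 in replicate 3, a 4.65-fold difference. Mnt +8261 went the other way, with ranks 13188 and 4282. The median rank ratio was 1.31 at the 5 genes, 1.49 over the 16 peaks of Mnt alone and 1.31 over all reproducible peaks.

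Below the reproducible list, the pooled list of 30000 peaks held 42 further peaks in the windows, for 69 in all. They numbered 16 at Myc, 15 at Mnt, 4 each at Max and Mondo and 3 at bigmax. Their deposited −log10 q-values ran from 0.314 to 4.42, and the lowest were 0.314 at Myc and 0.553 at Mnt. The count therefore includes peaks with little statistical support, and a place in the pooled list does not by itself mark a significant peak. Of these 42, 30 overlapped a peak in both replicates (71.4%, 55.4 to 84.3), against 67.8% of all pooled peaks outside the reproducible list. Stricter matching turned the order. With 50% reciprocal overlap the share was 38.1% (23.6 to 54.4) against 53.1%. With summits within 100 bp it was 38.1% against 42.6%. The lowest signal value in the reproducible list was 148. Just inside it, the weakest peaks of the 5 genes were Mondo -297 at 177 and Mnt +18995 at 191. Just outside lay Myc +16824 in its 3' UTR (147, rank 8057), a peak in an intron of Mnt at +24999 (146, rank 8089) and Mnt +429 (143, rank 8231).

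Sequence words were searched on both strands within 50 bp of each of the 27 summits. The ETS core GGAA was present at 14 (51.9%, 31.9 to 71.3), against 47.8% of all 8015 reproducible summits. The longer ETS word CCGGAAGT, which contains that core, was at 0 of 27, against 0.0998% of all. TAATTA was present at 3 (11.1%), namely Mnt +13541, Mondo -297 and bigmax -128, against 11.02% of all. GAGAG was present at 1 of 27 against 10.2%, CACGCG at 1 against 0.986% and the DRE word at 0 against 0.524%. The median G+C content of the windows was 32.7%, against 29.7% over all reproducible summits. With 27 summits, 0 matches allows a share of up to 12.8%, so differences of this size in rare words were not detectable.

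The E-box CACGTG, the site of the Myc, Max and Mnt proteins themselves, was at 0 of the 27 summits within 50 bp, against 0.474% of all. Within the whole peak it was present in 4 of 27 (14.8%, 4.19 to 33.7), against 2.92% of all reproducible peaks. Whole peaks differ in width, from 125 to 715 bp at these genes. These 2 shares were not adjusted for width. The 4 matches are printed with 20 bases to either side, E-box in capitals, from the plus strand of dm6, because they place the network's own word inside peaks at network genes. A match of letters is a description and shows no binding by any of these proteins.
Mnt +16187 at chrX:3688062-3688107: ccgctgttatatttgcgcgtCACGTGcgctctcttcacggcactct
Mnt +10541 at chrX:3682450-3682495: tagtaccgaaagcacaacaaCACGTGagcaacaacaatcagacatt
Mnt +2062 at chrX:3673980-3674025: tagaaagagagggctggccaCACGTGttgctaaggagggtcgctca
Max +509 at chr3L:19263738-19263783: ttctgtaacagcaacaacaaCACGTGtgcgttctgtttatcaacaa
These E-boxes lay 94, 128, 137 and 83 bp from their summits. The first was 148 bp upstream of the internal Mnt start site used by 5 transcripts. The last was 3 bp upstream of the start site shared by Mettl5 and CG42374 and inside Max.

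Genes connected with the network were then counted by the same promoter measure, a reproducible summit no more than 500 bp from a TSS. Of 49 genes in 5 lists, 20 had one (40.8%, 27.0 to 55.8), against 20.5% of all protein-coding genes. The lists were chosen with earlier results of these data known and were not tested.

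**Figure D5:**
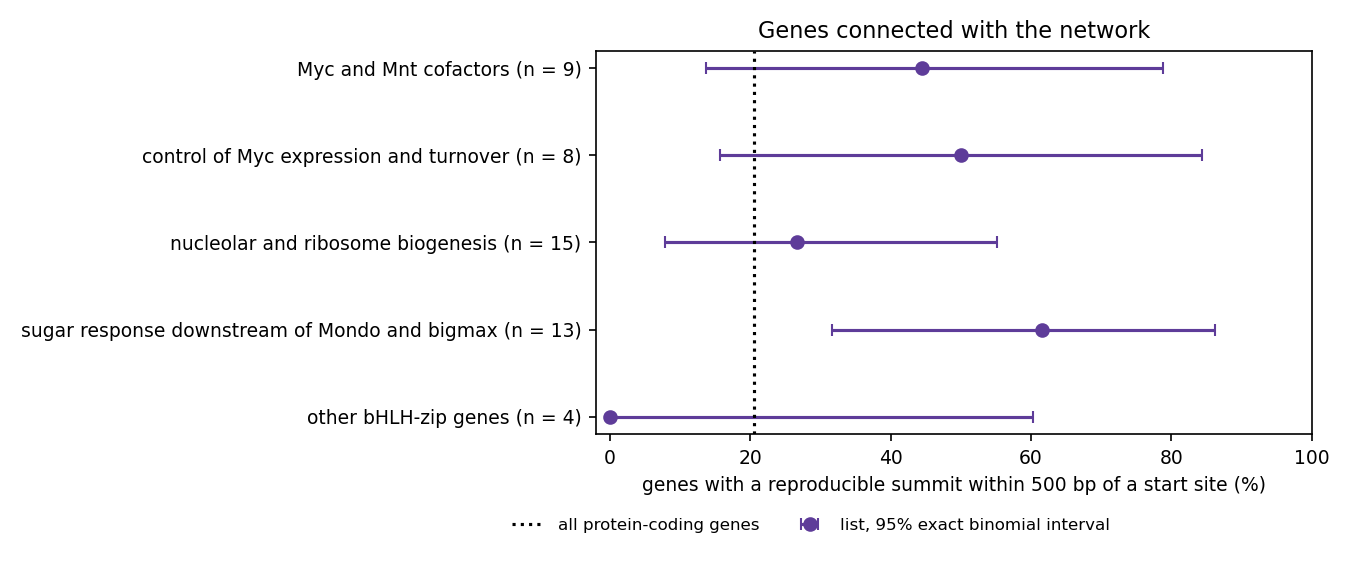
Share of genes in each list with a reproducible summit within 500 bp of a start site, with 95% exact binomial intervals and the share of all protein-coding genes (20.5%) as a dotted line. The sugar-response list stands at 61.5% and the other bHLH-zip genes at 0%.

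Sugar-response genes known downstream of Mondo and bigmax had a promoter summit in 8 of 13 cases (61.5%, 31.6 to 86.1). The strongest summits were at CG8036, a transketolase gene, with a signal value of 2124 and rank 121, and at cbt, a zinc-finger factor gene, with 2063 and rank 138. Both replicates ranked these peaks high, at 133 and 118 for CG8036 and 120 and 143 for cbt. Gpdh1, a glycerol-3-phosphate dehydrogenase gene, followed with 308, and sug, a zinc-finger factor gene, with 252 at 499 bp from its start site, the edge of the window. ACC, Aldh-III and ATPCL had no summit at a TSS. The count depended on the distance allowed: within 200 bp it was 4 of 13 and within 1000 bp 10 of 13. Own strongest peaks gave 7 of 13 in replicate 2 and 5 of 13 in replicate 3. With only the 4007 strongest reproducible peaks the count was 3 of 13, so most of the 8 rest on weaker peaks of the list. The share of all protein-coding genes was not recomputed at those distances or for those sets of peaks. The order of the lists turned with these choices. The share was below that of the cofactors of Myc and Mnt within 200 bp (4 of 9), in replicates 2 and 3 (5 of 9 in each) and with those 4007 peaks (3 of 9).

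Cofactors of Myc and Mnt had a promoter summit in 4 of 9 cases (44.4%, 13.7 to 78.8). These were gro, a corepressor gene, with a signal value of 1536, pont, an AAA+ ATPase gene, with 1494, Sin3A, a corepressor scaffold gene, with 543, and rept, the partner ATPase of pont, with 255. The rept summit lay closer to a start site of mRpL21 (123 bp) than to that of rept (156 bp). There was none at ash2, dom or Hcf.

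Regulators of Myc expression and turnover had 4 of 8 (50%, 15.7 to 84.3). The kinase gene sgg had the strongest, with a signal value of 1744 and rank 216. The summits at brat, a translational repressor gene, ago, an F-box gene for Myc degradation, and CkIalpha, a kinase gene, were weak at 209, 207 and 148. The window of brat held 16 summits in all, as many as that of Mnt. There was no promoter summit at hay, Psi or puf.

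Nucleolar and ribosome biogenesis genes, known targets of Myc, had 4 of 15 (26.7%, 7.79 to 55.1). Brf, a subunit gene of the RNA polymerase III initiation factor, had a signal value of 1065, but the summit lay 265 bp from its own start site and 8 bp from that of sds22. The nucleolar genes mbm, Nopp140 and nop5 had 243, 194 and 188, and the mbm summit was nearer to CG11555. Fib, mod and nclb had none. The other bHLH-zip genes had 0 of 4 (interval 0 to 60.2), namely crp, Mitf, SREBP and Usf, although the windows of all 4 held at least 1 reproducible summit and that of crp held 8.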

How the data were processed

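The authors deposited 4 peak lists in narrowPeak format on the dm6 assembly, per the file headers and the deposited description files. Peaks were called on each replicate with a control alignment, on both replicates pooled, and filtered by irreproducible discovery rate into the reproducible list. The reproducible peaks were the 8015 highest-ranked peaks of the pooled list by signal value. Whether a peak lay inside or outside the list thus followed its pooled rank. Of all reproducible peaks, 98.6% overlapped a peak in both replicates. No source used here names the peak caller, the aligner or the threshold. The signal value of each peak is the authors' own deposited score, compared within a list only. The deposited −log10 q-value is constant in the reproducible list and was used only for weak pooled peaks. Each replicate list holds 30000 peaks, so read depth is unknown from them.

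Summits were taken as column 2 plus column 10 and are given 1-based. Genes came from Ensembl release 115 (19630 protein-coding start sites) and sequence from RefSeq. All 5 members have the same coordinates in both. Peaks matched between lists with at least 1 bp overlap. Poisson and Clopper-Pearson intervals are at 95% and cover counting error only. Counts and intervals were computed with Python 3.11.15, pandas 2.3.3 and scipy 1.17.1, and the counting functions were tested on simulated data. Every member is described. For each list, all genes with a promoter summit are named if 5 or fewer have one, otherwise the 4 strongest, with up to 3 lacking one in alphabetical order. The 49 list symbols all matched, 2 through RefSeq synonyms. Members and lists were chosen with earlier results of these data known.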

Additional observations from a re-analysis of the deposited data

How the results depend on the processing

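The 27 summits in the 5 windows became 25 with flanks of 2 kb, 29 with 10 kb, 21 in gene bodies alone and 26 with either replicate's own strongest peaks. With only the 4007 strongest reproducible peaks the windows held 16. Density was 2.62 per 10 kb with flanks of 2 kb, 1.65 with 10 kb, 2.78 in gene bodies, 1.27 with those 4007 peaks and 2.07 with either replicate alone. Members with a promoter summit numbered 2 when each summit went to the nearest start site. Listed genes with one numbered 8 with those 4007 peaks and 34 with all pooled peaks. The share of all protein-coding genes was computed only for the full reproducible list within 500 bp. The 20.5% is therefore no background for these other counts. Pooled peaks in the windows found in both replicates were 82.6%, where all pooled peaks had 76.0%. With 50% reciprocal overlap the share was 49.3% where all had 57.7%, and with summits within 100 bp 59.4% where all had 56.5%. With only the strongest peaks of each replicate it was 42.0%, a setting not computed for all pooled peaks. The E-box count was 2 of 27 within 100 bp (7.41%, against 1.29% of all reproducible summits) and 4 in whole peaks (14.8% against 2.92%). No paired analysis was possible because both samples belong to 1 group. With 2 replicates and no read counts, the lists give no error for a single peak's signal value.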
